A study of Drosophila melanogaster with 13 samples.

Results

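Knockdown of OGT was compared with a driver-only control in proboscises of Drosophila melanogaster. The proboscis is the feeding organ of the fly, and its end, the labellum, bears taste hairs. The comparison took in 9 of the 13 libraries of the series, chosen by their labels, and it was described both for genes and for their separate transcripts. OGT RNAi flies had the genotype Gr5a-GAL4/UAS-OGT-RNAi (n = 5 libraries). Gal4 control flies had the genotype Gr5a-GAL4/+ and so carried the same driver without the RNAi transgene (n = 4 libraries). Both groups had spent 7 days on a high sugar diet, so no library of this comparison shows flies off that diet. Each library was made from 20 pooled proboscises with the Ovation SoLo kit. No age in days or sex was given in the labels used here. The replicates were described as biological, but the making of the fly pools was not described, so p-values measure the spread between these libraries.

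OGT, encoded by sxc in flies, attaches single N-acetylglucosamine (O-GlcNAc) residues to nuclear and cytoplasmic proteins. Its donor sugar is made by the hexosamine pathway, which draws on glucose, so the modification is often studied as a sensor of nutrient supply. Gr5a-GAL4 drives transgenes in sweet-sensing taste neurons, which are few among the epidermal, muscle, glial and support cells of a whole proboscis. A change within those neurons is therefore diluted in RNA of the whole organ. In such bulk RNA, fewer cells of a type and less RNA per cell cannot be told apart.

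The libraries held 8183507 to 13884994 estimated counts in OGT RNAi and 11067627 to 13467476 in Gal4 control, with OGT RNAi replicate 4 the shallowest. Transcripts of the mitochondrial genome made up 5.24 to 6.61% of counts in OGT RNAi and 5.38 to 6.93% in Gal4 control. A pair of Gal4 control libraries stood apart by photoreceptor transcripts. The rhodopsin ninaE reached 27.7 CPM (counts scaled to the library total, adjusted with the trimmed mean of M-values, TMM) in Gal4 control replicate 3 and 576 CPM in replicate 4, against 0.551 to 1.6 CPM in OGT RNAi and 1.13 and 1.58 CPM in the other Gal4 control libraries. Of 18 photoreceptor markers, 16 were highest in Gal4 control replicate 4, and the summed level was 156 to 202 CPM in OGT RNAi and 160 to 1372 CPM in Gal4 control. Of the 4 photoreceptor markers that passed the filter, 0 were called. In a principal component analysis of all tested genes the first component held 27.5% of the variance. On it the OGT RNAi libraries lay at -20.3 to 3.2 and the Gal4 control libraries at 8.2 to 17.2, with OGT RNAi replicate 4 nearest to the control libraries.

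**Figure D1:**
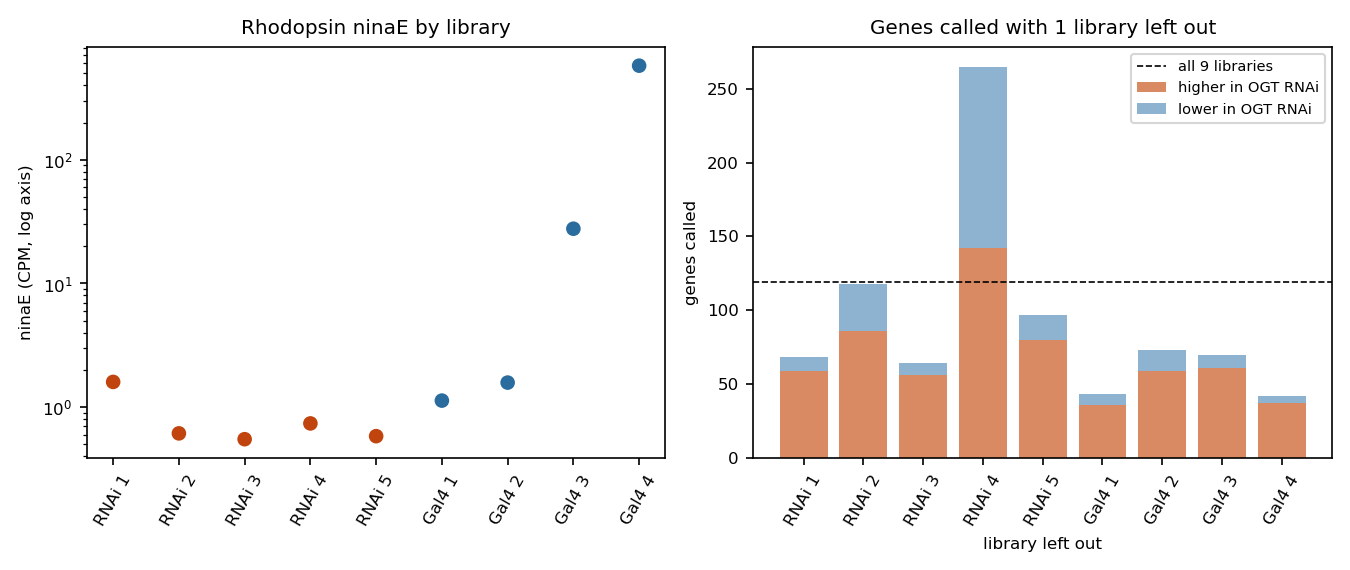
Left, the level of the rhodopsin ninaE in each library in TMM-normalised CPM on a log axis. Right, the number of genes called when 1 library is left out, as stacked bars split by direction, with a dashed line at the 119 genes called from all 9 libraries. Gal4 control replicate 4 stands at 576 CPM of ninaE, and the count of calls runs between 42 without Gal4 control replicate 4 and 265 without OGT RNAi replicate 4.

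The targeted gene came first as a check of the labels. Transcripts of sxc (FBgn0261403, 2R from 5307288 to 5329555) stood at 138, 170, 133, 135 and 136 CPM in OGT RNAi and at 163, 142, 170 and 174 CPM in Gal4 control. OGT RNAi replicate 2 lay among the control libraries, while the other OGT RNAi libraries lay below all of them. The log2 change was -0.19 (SE 0.0859, unadjusted p = 0.0456), and it was not called (edgeR quasi-likelihood test, Benjamini-Hochberg adjusted p = 0.376). The 3 transcripts of sxc share a coding part of 3177 bases, and 0 of them were called, with log2 changes of -0.27 for sxc-RA, -0.27 for sxc-RB and 0.14 for sxc-RC. The driver itself was read as the GAL4 transgene sequence. It had 11, 15, 17, 16 and 18 counts in OGT RNAi and 41, 28, 20 and 26 counts in Gal4 control, with every OGT RNAi library below every control library in raw counts. After scaling the ranges overlapped, at 0.798 to 1.97 CPM in OGT RNAi and 1.84 to 3.08 CPM in Gal4 control (log2 change -0.86, edgeR adjusted p = 0.143). The EGFP sequence had 0 counts in every library.

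The sweet taste receptors, expressed in the neurons that the driver marks, gave no call. Their summed level was 53 to 74.6 CPM in OGT RNAi and 72.7 to 90.4 CPM in Gal4 control. Among 8 tested members the median log2 change was -0.34, beside 0 over all tested genes. Of the 8, beside 12.9% of all tested genes, 3 had an unadjusted p under 0.05. Those were Gr64b (-0.34), Gr64c (-0.29) and Gr64d (-0.48), of which Gr64b and Gr64c share one annotated span. They had equal levels in every library but OGT RNAi replicate 4, with 15.1 CPM for Gr64b and 18 CPM for Gr64c. They are thus not separate measurements, although both count among the 8 and the 3. Gr64d and Gr64e also overlap and share an annotated end. Their levels differed, and how far they share reads was not tested. Gr5a, whose promoter gave the driver, had 2.69, 4.39, 4.72, 2.96 and 2.92 CPM in OGT RNAi and 6.08, 5.57, 4.13 and 2.62 CPM in Gal4 control. These ranges overlapped. The other members had log2 changes of -0.38 (Gr64f), -0.34 (Gr64e), 0.12 (Gr64a) and 0.34 (Gr61a). The 15 neuronal markers had a median of -0.12 with 0 called, and the share of the receptor levels that goes with the number of neurons was not tested.

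Across the whole proboscis, genes that passed the test were mostly higher in OGT RNAi. Of 9400 tested genes, 119 were called (adjusted p under 0.05, 1.27% of tested genes). Of these, 98 rose (1.04%) and 21 fell (0.223%). The median log2 change was 0.63 among those that rose and -0.55 among those that fell. A change of at least 1.5-fold was seen in 65 (56 higher, 9 lower) and of at least 2-fold in 25 (19 higher, 6 lower). In 110 of the 119 the groups did not overlap, as was the case in 521 of all tested genes (5.54%). An unadjusted p under 0.05 was found in 1212 genes (12.9%). Called genes drew about as many counts as tested genes in general, with medians of 23.3 and 23.9 CPM. For 67 of them the deposited tables give only an annotation number as the name.

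The size and the direction of this list depended on single libraries and on the tool. OGT RNAi replicate 4 was the lowest OGT RNAi library in 62 of the 98 genes that rose and the highest in 12 of the 21 that fell. Gal4 control replicate 4, the library with the most eye RNA, was the highest control library in 10 of the 21 that fell. Without OGT RNAi replicate 4, 265 genes were called, 142 higher and 123 lower. Leaving out 1 other library gave 42 to 118 calls, with 42 without Gal4 control replicate 4, 43 without Gal4 control replicate 1, 64 without OGT RNAi replicate 3, 68 without OGT RNAi replicate 1, 70 without Gal4 control replicate 3 and 73 without Gal4 control replicate 2. The share of calls that were higher was 82.4% in edgeR, against 62% in DESeq2 (165 of 266), 63.3% in limma on log2 TPM (57 of 90) and 53.6% without OGT RNAi replicate 4. With both control libraries that held eye RNA left out, an alternative chosen after seeing the data, 4 genes were called: Lcp65Ag2, Galphaf, CG4000 and CG5773. In that fit all 119 genes kept their direction and an unadjusted p under 0.05, and the median log2 change was 0.61 for the genes that rose and -0.54 for those that fell. That fit shares all of its libraries with the fit of 9.

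**Figure D2:**
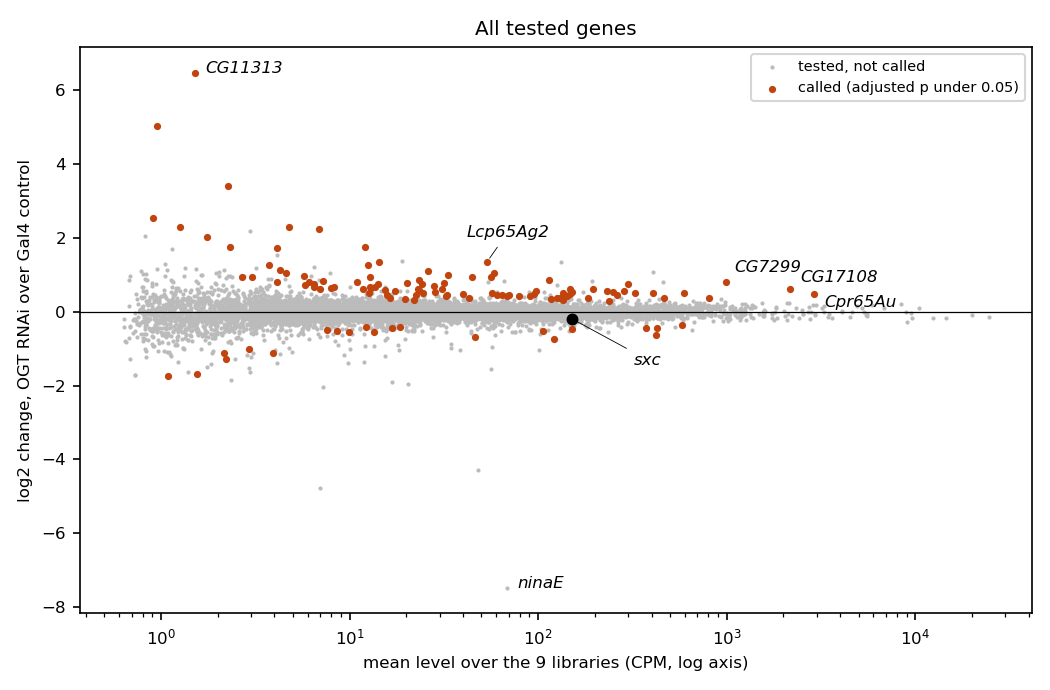
Each point is 1 of the 9400 tested genes, with its mean level over the 9 libraries in CPM on a log axis across and its log2 change, OGT RNAi over Gal4 control, up. Called genes are coloured, sxc is black at -0.19, and the rhodopsin ninaE lies lowest without being called. More of the called points lie above 0 (98) than below it (21).

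Among called genes of at least 5 CPM whose groups did not overlap, the largest increases were in genes of mixed or unknown function. CG17716 (FBgn0000633, 2R from 13623044 to 13749367, named tei in the reference annotation) had 14.5, 11.7, 10.1, 3.32 and 13.3 CPM in OGT RNAi and 2.03, 2.66, 1.28 and 3.14 CPM in Gal4 control. Its OGT RNAi replicate 4 lay close to the highest control library while the others lay far above. The log2 change was 2.24 (SE 0.418, adjusted p = 0.0428), and the call was lost in 11 of 16 other settings. CG10359 (FBgn0035452, 3L from 3612192 to 3615244) behaved alike, with 8.13 to 26.3 CPM in OGT RNAi and 4.5 to 6.72 CPM in Gal4 control (log2 change 1.75, SE 0.311, adjusted p = 0.036).

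Calls kept in all of those 16 settings included CG4000, Lcp65Ag2, Galphaf and CG5397. CG4000 (FBgn0038820, 3R from 20676224 to 20677351), a gene of unknown function, had the smallest p of all. Its levels were 91.8, 71.4, 69, 68.8 and 77.9 CPM in OGT RNAi and 34, 40, 39 and 33.3 CPM in Gal4 control, so that the lowest OGT RNAi library lay far above the highest control library. It was 2.08-fold higher (log2 change 1.05, SE 0.098, adjusted p = 0.000202). Galphaf (FBgn0010223, 3L from 16662557 to 16667934), the alpha subunit of a heterotrimeric G protein, had 58.9, 55.6, 60, 43 and 65.6 CPM in OGT RNAi and 25.5, 29.1, 30.4 and 33.5 CPM in Gal4 control. The groups were well apart (log2 change 0.94, SE 0.113, adjusted p = 0.00123). It was the only called gene among 32 tested genes of G protein, phospholipase C and cyclic AMP signalling, whose median log2 change was -0.08. CG5397 (FBgn0031327, 2L from 1240036 to 1243018) had 114 to 167 CPM in OGT RNAi and 69.3 to 88.4 CPM in Gal4 control (log2 change 0.86, adjusted p = 0.00123).

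The rest of the 12 largest increases ranged in log2 change between 0.86 and 1.36. CG2837 (FBgn0031646, 2L from 4903865 to 4906762), named snsl in the reference annotation, had 13.4 to 27.2 CPM in OGT RNAi and a narrow 7.34 to 8.22 CPM in Gal4 control (log2 change 1.35, adjusted p = 0.00427). CG14291 (FBgn0038660, 3R from 18911053 to 18912922), named Sgsh there after the lysosomal sulfamidase that helps degrade heparan sulfate, had 12.1 to 21.2 CPM in OGT RNAi and 5.85 to 9.14 CPM in Gal4 control (log2 change 1.27, adjusted p = 0.00497). CG16820, CG31871 and CG8539 had log2 changes of 1.11, 1 and 0.93. In each of these 3 genes OGT RNAi replicate 4 was the lowest OGT RNAi library and still above every control library.

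Among genes chosen by the same rule, those that fell changed by smaller amounts than those that rose. Below 5 CPM larger falls were seen, with 6 genes lower by at least 2-fold. Among these were CG32052 (log2 change -1.75), SclA (-1.7) and Osi7 (-1.28), named after their values were seen. Rises below 5 CPM still went further, as in CG11313 (log2 change 6.48) and Spn28F (3.4), named likewise. Adgf-A (FBgn0036752, 3L from 17751731 to 17764158), a secreted adenosine deaminase, had 315, 307, 338, 415 and 320 CPM in OGT RNAi and 605, 479, 568 and 429 CPM in Gal4 control. OGT RNAi replicate 4 and Gal4 control replicate 4 lay next to each other (log2 change -0.62, adjusted p = 0.014). fru (FBgn0004652, 3R from 18414273 to 18545586), the BTB zinc finger factor best known for male courtship neurons, had 125 to 141 CPM in OGT RNAi and 160 to 211 CPM in Gal4 control (log2 change -0.47, adjusted p = 0.0104). The highest level, 211 CPM, was in Gal4 control replicate 4, and the other control libraries lay at 160 to 174 CPM. The 5 transcripts of fru above 5 CPM all had negative log2 changes, between -0.66 and -0.1.

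Glut4EF (FBgn0267336, 3R from 9874681 to 9995364), a transcription factor, had 340 to 406 CPM in OGT RNAi and 414 to 578 CPM in Gal4 control, highest in replicate 4 (log2 change -0.43, adjusted p = 0.0339). Mp (FBgn0260660, 3L from 6998843 to 7053499), a collagen of the multiplexin type in basement membranes, had 12.4 to 16.4 CPM in OGT RNAi and 17.6 to 20.5 CPM in Gal4 control (log2 change -0.43, adjusted p = 0.0387). Both calls were lost with a length offset, with limma and in most leave-outs. The steadiest of the genes that fell was CG33110 (FBgn0053110, 3R from 22570188 to 22580392), with 84.9, 90, 93.1, 93.1 and 86.8 CPM in OGT RNAi and 118, 121, 128 and 143 CPM in Gal4 control. Its OGT RNAi libraries lay within a narrow band below the control (log2 change -0.51, SE 0.0702, adjusted p = 0.00235). CG18278, CG14298, CG2321, CG5810, CG31705 and CG10669 completed the list with log2 changes of -0.55, -0.55, -0.51, -0.5, -0.44 and -0.42.

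**Figure D3:**
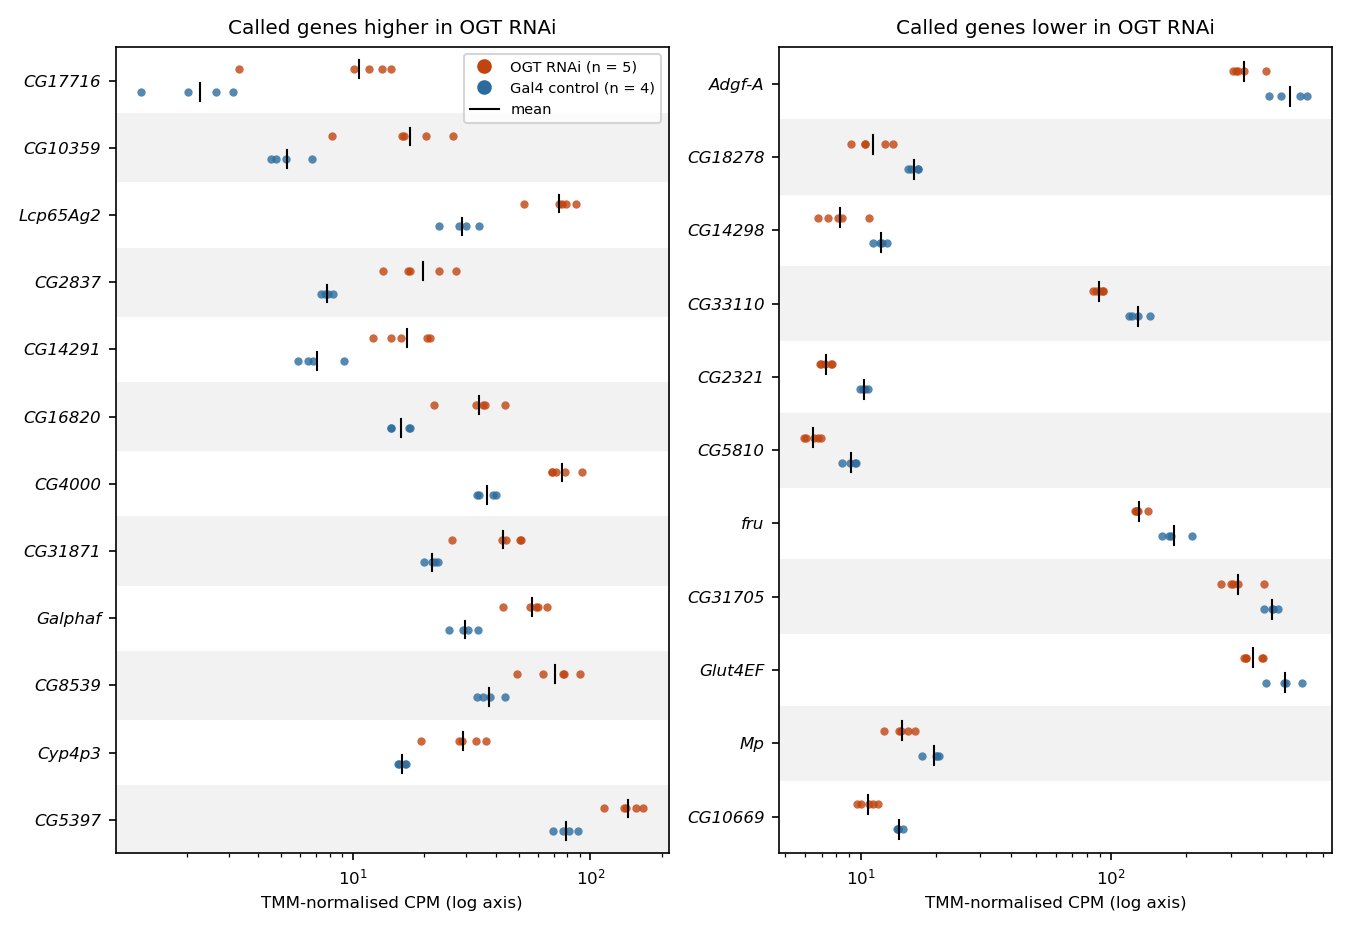
Levels in each library of the 12 genes with the largest increases (left) and 11 of the 12 with the largest decreases (right) among called genes of at least 5 CPM whose groups do not overlap, in TMM-normalised CPM on a log axis. Points are libraries, with OGT RNAi (n = 5) above Gal4 control (n = 4), and the bar is the mean. The widest gaps are on the left, as in Lcp65Ag2 with 52.6 to 87 CPM in OGT RNAi and 23 to 34.1 CPM in Gal4 control.

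Structural proteins of the cuticle, the chitin-based coat of the fly, included 4 members that rose and 0 that fell among 26 tested (15.4%), beside 1.04% of all tested genes that rose. The list had a median log2 change of 0.27, beside 0 over all tested genes, with 18 positive members. In 11 of the 26 the groups did not overlap, beside 5.54% of all tested genes. The count leaves out 3 genes that the name pattern of the list had caught and that are not cuticle proteins. Lcp65Ag2 (FBgn0020637, 3L from 6132990 to 6133593) had 87, 79, 74, 52.6 and 76.1 CPM in OGT RNAi and 30, 28, 34.1 and 23 CPM in Gal4 control. All OGT RNAi libraries were above all control libraries, 2.57-fold on the fitted scale (log2 change 1.36, SE 0.144, adjusted p = 0.00123). Its neighbour Cpr65Au (FBgn0042119, 3L from 6131242 to 6132109) held the most counts of all called genes, with 3199, 3237, 3450, 3017 and 3716 CPM in OGT RNAi and 2149, 2702, 2509 and 2183 CPM in Gal4 control. It was 1.39-fold higher (log2 change 0.48, SE 0.0881, adjusted p = 0.0145).

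The other cuticle members that rose were Cpr57A, with 195 to 211 CPM in OGT RNAi and 146 to 172 CPM in Gal4 control (log2 change 0.37, adjusted p = 0.0156), and Cpr97Eb (0.61, adjusted p = 0.0175). Summed over the list the level was 4699 to 5389 CPM in OGT RNAi and 3473 to 4164 CPM in Gal4 control, a sum led by Cpr65Au. Not all members went the same way. TwdlY had 4.72, 7.29, 5.67, 4.31 and 6.42 CPM in OGT RNAi and 8.55, 25.7, 9.08 and 16.2 CPM in Gal4 control, without passing the test (log2 change -1.38, adjusted p = 0.145). Acp65Aa had a log2 change of -1.5 (adjusted p = 0.113). TwdlY and Acp65Aa were named after their values were seen. Of the 4 calls, 1 was left without Gal4 control replicate 1, without Gal4 control replicate 4, or without both libraries with eye RNA, and 7 were made without OGT RNAi replicate 4.

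The trachea and epidermis list had 2 of 15 tested members called, beside 1.27% of all tested genes, and its summed level was 1452 to 1757 CPM in OGT RNAi and 1391 to 1509 CPM in Gal4 control. They were kkv, the chitin synthase of cuticle (FBgn0001311, 3R from 5378093 to 5392866), and serp, a chitin deacetylase (FBgn0260653, 3L from 19700977 to 19708015). kkv had 15.3, 11, 13.4, 9.85 and 18.2 CPM in OGT RNAi and 6.9, 7.72, 7.06 and 9.78 CPM in Gal4 control (log2 change 0.8, adjusted p = 0.042), with the lowest OGT RNAi library almost level with the highest control library. serp had 53.9 to 81.7 CPM in OGT RNAi and 46.8 to 54.2 CPM in Gal4 control, ranges that overlapped (log2 change 0.45, adjusted p = 0.0436). The list median was 0.16, with 12 of the 15 members positive and a lowest log2 change of -0.25. The list held 0 calls with limma, with the replicate block, without any 1 of the Gal4 control libraries, without OGT RNAi replicate 1, without OGT RNAi replicate 3 and without both libraries with eye RNA. The chitin deacetylase verm, next to serp, did not pass (log2 change 0.28, adjusted p = 0.0529), nor did obst-A (0.54, adjusted p = 0.116). obst-E (FBgn0031737), a chitin-binding protein chosen after inspection of the values, stood at 113, 104, 112, 113 and 123 CPM in OGT RNAi and at 68, 84.1, 82.9 and 73.1 CPM in Gal4 control, well apart (log2 change 0.55, adjusted p = 0.00314). Duox (FBgn0283531), an oxidase that makes hydrogen peroxide, and amd (FBgn0000075), an enzyme of cuticle formation, were also chosen after their values were seen. Their log2 changes were 0.5 (adjusted p = 0.0138) and 0.45 (adjusted p = 0.0403). obst-E, Duox and amd were picked among called genes that rose, so they say nothing of the direction of a group. Epidermal cell number or state, and its part in these changes, was not tested.

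Some detoxifying enzymes rose, while the median of the class was near 0. Of 93 tested glutathione transferases and cytochrome P450s, 6 rose (6.45%, beside 1.04% of all tested genes) and 0 fell, while the median log2 change was -0.01 and 46 members were positive. The summed level was 14543 to 15673 CPM in OGT RNAi and 14234 to 15350 CPM in Gal4 control. Cyclophilin Cyp1, caught by the name pattern, is left out of these figures. GstE5 (FBgn0063495, 2R from 18404605 to 18405338) had 38.1, 34.2, 33.1, 28.3 and 35.9 CPM in OGT RNAi and 19.5, 20.6, 25.2 and 19 CPM in Gal4 control. No control library reached the lowest OGT RNAi library (log2 change 0.69, SE 0.101, adjusted p = 0.00347). Cyp6a23 (FBgn0033978, 2R from 14875829 to 14877654) had 234 to 306 CPM in OGT RNAi and 166 to 201 CPM in Gal4 control (log2 change 0.57, adjusted p = 0.0038). Cyp4p3 (FBgn0033397, 2R from 9242320 to 9244410) had 19.3 to 36.4 CPM in OGT RNAi and 15.5 to 16.7 CPM in Gal4 control (log2 change 0.86, adjusted p = 0.0121). The remaining calls were Cyp6a21 (0.43), Cyp312a1 (0.64) and GstE1 (0.43), which lies next to GstE5. Cyp6a20, a P450 known from studies of fly aggression, had the largest log2 change of the list (1.09) without passing the test (adjusted p = 0.0597), at 676, 486, 546, 315 and 644 CPM in OGT RNAi and 232, 227, 306 and 239 CPM in Gal4 control. Its groups did not overlap. On the other side Cyp313b1 (log2 change -0.52, adjusted p = 0.0513), Cyp6a17 (-0.43, adjusted p = 0.0646) and Cyp12a5 (-0.36, adjusted p = 0.0727) also missed the threshold narrowly. These 4 were chosen after inspection of the values. The number of calls of this list was 0 without both libraries with eye RNA and 17 without OGT RNAi replicate 4.

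**Figure D4:**
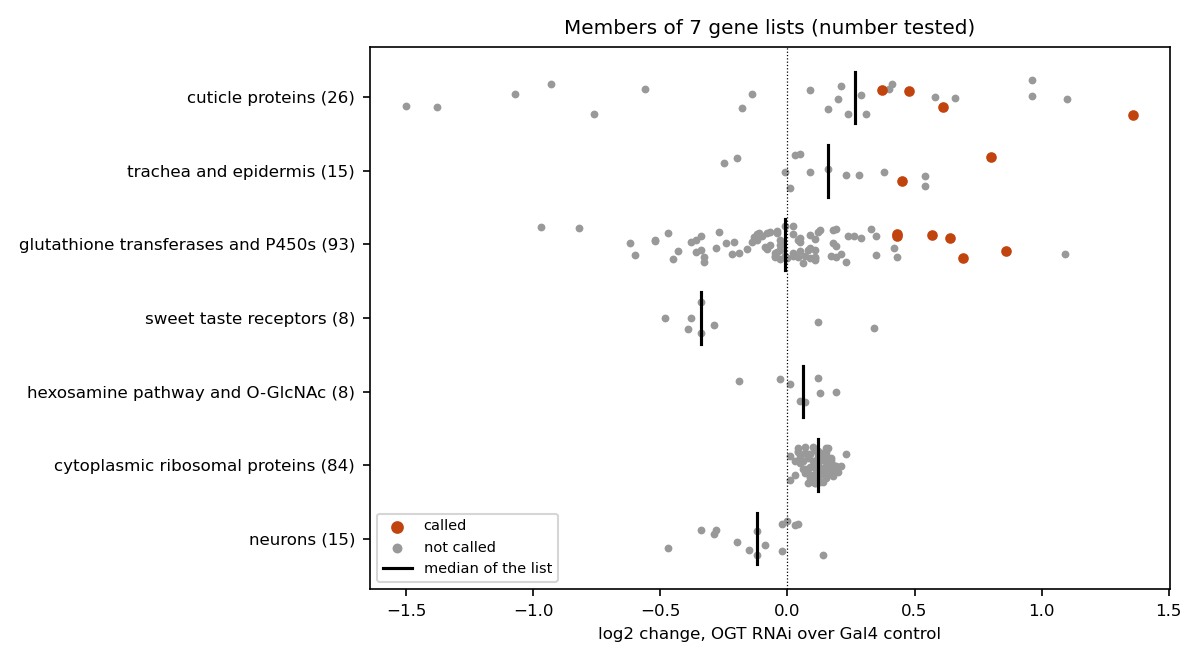
Log2 changes, OGT RNAi over Gal4 control, of the tested members of 7 gene lists. Each point is a gene, coloured where called, the black bar is the median of the list and the dotted line marks 0. The cuticle list has its median at 0.27 with 4 called members on the right and several uncalled members on the left, while the 84 ribosomal protein genes lie in a narrow group just above 0.

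Single members rose in 3 further lists, where a share of 1.27% was called over all tested genes. Ir60a (FBgn0034994, 2R from 24249055 to 24251303), an ionotropic receptor, had 7.33, 7.9, 7.4, 7.39 and 9.33 CPM in OGT RNAi and 4.35, 4.65, 6.06 and 3.75 CPM in Gal4 control (log2 change 0.75, adjusted p = 0.0223). It was the called 1 of 19 tested ionotropic receptor and ppk channel genes, a list with a median of -0.13. mdy (FBgn0004797), a diacylglycerol acyltransferase that completes triglyceride synthesis, had 65.6 to 84.6 CPM in OGT RNAi and 53.2 to 60.2 CPM in Gal4 control (log2 change 0.42, adjusted p = 0.0162). It was the called 1 of 20 lipogenesis genes, whose median was -0.07. Hsp22, a mitochondrial small heat shock protein, had 17 to 24.2 CPM in OGT RNAi and 11.9 to 16.1 CPM in Gal4 control (log2 change 0.56, adjusted p = 0.0488), as the called 1 of 16 heat shock genes. Of the 9 leave-outs, the call of Hsp22 was lost in 7, that of mdy in 3 and that of Ir60a in 3. Single calls of this kind say nothing of their lists.

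In the other 40 of the 48 gene lists, with 733 tested members, 0 genes were called. These lists were grouped by having no call, so this 0 is not a result about them. The hexosamine and O-GlcNAc list, which holds the enzymes that make, attach and remove the sugar, had 8 tested members with a median log2 change of 0.06. Gfat1, the first enzyme of the pathway, had 578, 491, 558, 504 and 526 CPM in OGT RNAi and 446, 472, 488 and 462 CPM in Gal4 control. All OGT RNAi libraries lay above the control libraries, but the change was not called (log2 change 0.19, unadjusted p = 0.0155, adjusted p = 0.244). All 84 tested cytoplasmic ribosomal protein genes had positive log2 changes, with a median of 0.12, a range of 0.01 to 0.23 and 0 called. Their summed level was 47231 to 55009 CPM in OGT RNAi and 43888 to 49800 CPM in Gal4 control, ranges that overlap. All 84 were measured in the same 9 libraries and so are not independent points, and the cause of the shared sign was not tested. Synaptic vesicle genes (31 tested, median -0.08), glycolysis (15, -0.01), the TCA cycle (22, 0) and insulin, FOXO and AKH signalling (27, -0.11) gave 0 calls each. With 1.27% called over all tested genes, 0 calls in lists of this size say nothing of them.

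A few further called genes were chosen after their values were seen and stand for no group. Eogt (FBgn0264672, 2L from 2381097 to 2383073), a separate O-GlcNAc transferase of the endoplasmic reticulum that modifies extracellular domains, had 33.5, 30.4, 30.1, 27.3 and 43.2 CPM in OGT RNAi and 21.6, 23.6, 23.9 and 21.7 CPM in Gal4 control. It lay above the control in every library (log2 change 0.54, SE 0.115, adjusted p = 0.0333). C1GalTA (FBgn0032078, 2L from 8943455 to 8951216), the galactosyltransferase of core 1 O-glycans, had 30.9 to 44 CPM in OGT RNAi and 24.7 to 30 CPM in Gal4 control (log2 change 0.45, adjusted p = 0.0376). Both calls were lost with limma and in several leave-outs. MtnA, a metallothionein that binds copper and other metals, had 30.5 to 46.7 CPM in OGT RNAi and 18.9 to 25.2 CPM in Gal4 control (log2 change 0.77, adjusted p = 0.00951). Drip, an aquaporin, and CAH2, a carbonic anhydrase, had log2 changes of 0.45 (adjusted p = 0.0192) and 0.52 (adjusted p = 0.0128).

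The largest fitted changes belonged to genes almost silent in Gal4 control, which the minimum of 5 CPM kept out of the rule and which were named after their values were seen. CG11313 (FBgn0039798, 3R from 30729837 to 30731165) had 3.12, 2.63, 2.99, 0.862 and 4.01 CPM in OGT RNAi, against 0 in 3 Gal4 control libraries and 0.0918 CPM in replicate 3. Summed over libraries this was 173 counts in OGT RNAi and 1 count in Gal4 control, a depth-adjusted ratio of 138 with a 95% counting interval of 24.5 to 5493. CG15696 (FBgn0038833, 3R from 20847068 to 20847748) had 105 counts in OGT RNAi and 2 counts in Gal4 control, a ratio of 42 with an interval of 11.3 to 351. These intervals cover counting error only. Spn28F, a serpin, had 1.48 to 5.88 CPM in OGT RNAi and 0.15 to 0.551 CPM in Gal4 control (log2 change 3.4, adjusted p = 0.00235). All 3 genes were detected in every OGT RNAi library, with the lowest level in replicate 4.

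Called genes lay on all major chromosome arms. They made up 1.45% of tested genes on 2L, 1.15% on 2R, 1.59% on 3L, 1.58% on 3R and 0.45% on X, where 7 of 1556 were called. Of 118 called genes with a position, 24 lay in 11 runs of called genes less than 20 kb apart, and in 9 of the runs all members had the same sign. Of all called genes 82.4% were higher, so members of a run often share a sign wherever they lie. How many such runs an equal number of other tested genes would form was not tested. The longest run covered 2L from 10662081 to 10694103 with CG31871, CG17107, CG7299 and CG17108, all higher. CG7299 had 1191, 1156, 1319, 1021 and 1455 CPM in OGT RNAi and 637, 820, 736 and 627 CPM in Gal4 control (log2 change 0.8, SE 0.107, adjusted p = 0.00235). CG17108 had 2346 to 2819 CPM in OGT RNAi and 1282 to 1939 CPM in Gal4 control (log2 change 0.63, adjusted p = 0.0096), and CG17107 had a log2 change of 1.72 (adjusted p = 0.00151). Both abundant genes were apart between the groups, and none of the 4 shares all its counts with another gene. On X, the neighbours CG9521 and CG9519 rose together with log2 changes of 0.55 and 0.51. The genes of these runs were named after their values were seen. The RNAi transgene and its strain background came together in these flies, so their effects cannot be told apart.

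Of the 119 genes, 13 were also called between sugar diet and control diet in the separate libraries of the series. This is 12.6% of the 103 that were tested there and 2.28% of the 571 diet calls (6.47% of the genes tested there). The number was 31 with DESeq2, which called 266 genes between OGT RNAi and Gal4 control. It was 23 with no filter on low counts, where 148 were called. The diet groups had 2 libraries each, of 200 proboscises and made with another kit. Transcripts of Arc1 held 12.63 and 13.4% of counts on sugar diet and 7.4 and 7.51% on control diet, against 0.38 to 0.57% in the 9 libraries described here. With OGT RNAi and on sugar diet, 5 of the 13 rose in both (CG7299, CG5773, CG9519, Cpr65Au and serp), 3 rose with OGT RNAi and fell on sugar diet, 5 fell with OGT RNAi and rose on sugar diet, among them Osi7, and 0 fell in both.

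Tested one transcript at a time, far fewer differences passed. Of 19249 tested transcripts, 1 was called (0.0052%), the transcript PCB-RJ, and 1393 had an unadjusted p under 0.05 (7.24%). DESeq2 called 355 transcripts and limma 10. The estimated counts come from a model that divides reads among overlapping transcripts, and the uncertainty of that division is not part of them. Isoform usage, the change of a transcript relative to the other transcripts of its gene, could be tested in 4562 genes with 14470 transcripts. It was called in 12 genes (0.263%) and in 13 of their transcripts (0.0898%), 11 with a larger and 2 with a smaller share in OGT RNAi. None of the 12 genes was called by the gene test, which called 1.27% of all tested genes. Of the 4562, 71 had an unadjusted usage p under 0.05, a smaller share than the threshold itself.

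PCB, pyruvate carboxylase, which feeds pyruvate into the TCA cycle as oxaloacetate, had the smallest p for usage. Its transcript PCB-RJ (FBtr0088458, 2R from 9850703 to 9860759, minus strand) had 138, 91, 96.1, 57.3 and 115 CPM in OGT RNAi and 3.73, 1.6, 3.37 and 3.34 CPM in Gal4 control. The groups were more than an order of magnitude apart even at OGT RNAi replicate 4. Its log2 change was 5.04 (SE 0.342, edgeR adjusted p = 0.00319) and the usage p of the gene, adjusted over all tested genes, was 3.27e-18. PCB-RJ made up 22.8 ± 9.72% of the counts of the gene in OGT RNAi (SD, n = 5) and 0.581 ± 0.206% in Gal4 control (SD, n = 4). The gene as a whole had a mean of 460 CPM in OGT RNAi and 530 CPM in Gal4 control and was not called (adjusted p = 0.45).

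The leading transcript of PCB in both groups, PCB-RA (FBtr0088457), covers the same span with 6 exons, and PCB-RJ has 7. In the annotation PCB-RJ differs by a coding exon of 48 bases, or 16 codons, on 2R from 9853683 to 9853730. PCB-RA had 44.5, 58, 65.4, 69.7 and 50.6% of gene counts in OGT RNAi and 76.1, 74.8, 76.3 and 71.9% in Gal4 control. The 5 annotated transcripts with the longer coding part of 3591 bases together held 52.1, 37.8, 31.6, 25 and 46.1% of the counts in OGT RNAi and 17.8, 18.7, 17.6 and 21.7% in Gal4 control. Every OGT RNAi library was thus above every control library also for the sum, in which the split among those 5 transcripts plays no part, although replicate 4 came close.

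Maf1, a repressor of RNA polymerase III, was next. Maf1-RE (FBtr0344972, 2R from 1515595 to 1516830, minus strand) had 68, 51.2, 55.4, 25.4 and 70.8 CPM in OGT RNAi and 6.49, 9.5, 7.56 and 9.07 CPM in Gal4 control. It held 50.1 ± 12.3% of the counts of the gene in OGT RNAi (SD, n = 5) and 9.74 ± 2.41% in Gal4 control (SD, n = 4), with no overlap (adjusted usage p of the gene 5.08e-08, edgeR). Maf1-RA (FBtr0113829), which extends to 1527095 and encodes the same 226 codons, held 21.9, 29.9, 31.5, 41.3 and 13.5% in OGT RNAi and 46.9, 45.9, 50 and 44.5% in Gal4 control. Another transcript, Maf1-RB, held 7.3 ± 2.87% in OGT RNAi and 19.8 ± 2.41% in Gal4 control. Maf1-RE and Maf1-RA thus differ in their annotated start and not in the annotated protein. The gene as a whole was not called (log2 change 0.3, adjusted p = 0.194). In the authors' deposited table Maf1-RE had a q-value of 6.52e-19 and PCB-RJ one of 0.000831. Of the 13 transcripts called for usage, 11 have a q-value in the authors' deposited table, under 0.05 for 4 and between 0.1 and 0.836 for the other 7, CG6701-RD, CG9812-RE, Eaat2-RD and homer-RB among them. PCB and Maf1 were called for usage in every alternative that was run.

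The other usage calls concerned transcripts with smaller shares. CG6701-RD (FBtr0303991, 2R) held 21.5, 12.7, 17.9, 10.9 and 18.8% of its gene in OGT RNAi and 3.81, 6.24, 2.25 and 6.85% in Gal4 control (adjusted usage p of the gene 0.00245). CG9812-RE (FBtr0343207, 2R) held 8.55 to 24.4% in OGT RNAi and 0.418 to 5.71% in Gal4 control (0.0109). Both had every OGT RNAi library above every control library. CG9812-RE lies wholly within the exons of the leading CG9812-RB, starts 90 bases further in and has the same coding part. Against CG9812-RB it has 0 exonic bases of its own, so no read is particular to it. Eaat2-RD (FBtr0301317, 2L), a transcript of an amino acid transporter gene, held 5.42 to 16.5% in OGT RNAi and 1.23 to 3.87% in Gal4 control (0.00743). Bacc-RB (FBtr0077713, 2L) held 2.93 to 6.4% in OGT RNAi and 0 to 1.18% in Gal4 control (0.00697). Zasp52 encodes a protein of the muscle Z-disc, and its transcript Zasp52-RL held 3.3 to 9.02% in OGT RNAi and 1.55 to 4.21% in Gal4 control, ranges that overlapped (0.0186). Zasp52-RG has the same span and is 21 bases shorter, although it lacks 220 exonic bases of the leading Zasp52-RR and Zasp52-RL lacks 0. Summed, Zasp52-RL and Zasp52-RG had 205 to 315 CPM in OGT RNAi and 173 to 223 CPM in Gal4 control, which also overlapped.

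Several calls rested on transcripts estimated at 0 in a whole group. homer-RB (FBtr0079307, 2L from 6719896 to 6722930), a transcript of the postsynaptic scaffold gene homer, had 0 counts in all OGT RNAi libraries and 1.87, 2.69, 2.28 and 6.33 CPM in Gal4 control. Its near copy homer-RG, of the same span and 9 bases longer, went the other way, with means of 4.24 CPM in OGT RNAi and 0.951 CPM in Gal4 control. Summed, both transcripts had a mean of 4.24 CPM in each group, so the difference lies in the split between them. Whether that split was one of the RNA or of the estimate was not tested. Su(var)2-10-RN (FBtr0343996), from the gene of a SUMO ligase, had 6.42, 2.49, 1.76, 9.11 and 3.84 CPM in OGT RNAi and 0 in all Gal4 control libraries. Zasp52-RN, CG7231-RF and CG6845-RC were also at 0 in Gal4 control, with 177, 119 and 86 counts over the OGT RNAi libraries. CG7231-RF has a near copy of the same span too, and Zasp52-RN has a transcript of the same span and nearly the same length. Summed with CG7231-RC, 8 bases shorter, the first had 3.43 to 7.11 CPM in OGT RNAi and 2.82 to 4.7 CPM in Gal4 control. Summed with Zasp52-RI, 12 bases longer, the second had 21.1 to 31.7 CPM in OGT RNAi and 32.1 to 36.3 CPM in Gal4 control. Zasp52-RN was at 0 in OGT RNAi replicate 4 and CG7231-RF in replicate 2. The other transcript with a smaller share was vir-1-RD (FBtr0100125), with 0.589 to 1.16% of its gene in OGT RNAi and 1.42 to 3.15% in Gal4 control. The reads that separate such transcripts from others of their gene were not counted here. When only transcripts of at least 10% of their gene were tested, 3 genes were called, PCB, Maf1 and CG6701.

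**Figure D5:**
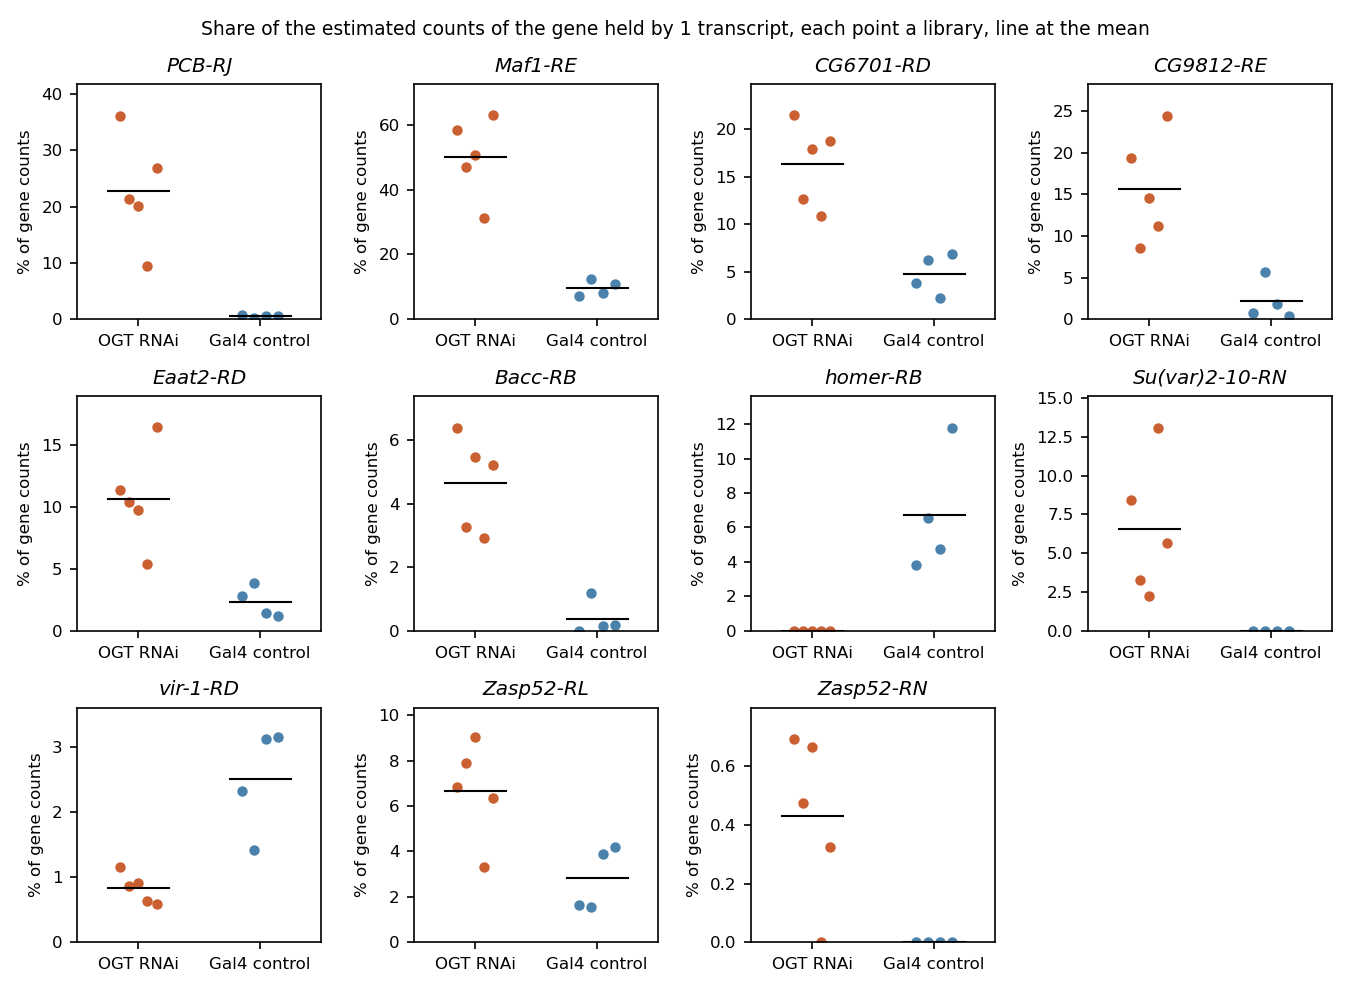
Share of the estimated counts of its gene held by each of 11 transcripts called for usage, in percent, with OGT RNAi (5 points) left of Gal4 control (4 points) and a line at the mean. Each panel has its own axis. PCB-RJ and Maf1-RE have means of 22.8% and 50.1% in OGT RNAi, and homer-RB and vir-1-RD have the larger share in Gal4 control.

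Most genes kept their leading transcript. Of 5726 tested genes with at least 2 listed transcripts, 3948 (68.9%) had the same transcript in the lead by TPM, a level per transcript length, in all 9 libraries. In the control the leading transcript held a median of 75.1% of the TPM of its gene. In 3 genes one transcript led in all OGT RNAi libraries and another in all Gal4 control libraries: CG2201, CG6406 (Hyccin in the reference annotation) and CG5778 (BomT3 there). They were named after their values were seen. Hyccin-RA held 55.6 to 100% of the TPM of its gene in OGT RNAi and 0.71 to 19.7% in Gal4 control, but the usage test did not call it (unadjusted p = 0.0198, adjusted p = 1). In the other 2 genes the leading pair lay close together, as in BomT3-RC with 50.3 to 56.8% in OGT RNAi and 43.6 to 49.2% in Gal4 control.

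The transcripts of a called gene mostly had the same sign. Gene counts are sums of the counts of these transcripts, so such agreement was partly fixed in advance. Of the called genes, 27 had at least 2 transcripts of 5 CPM or more, and in 21 of them all these transcripts had the same sign. Skeletor had 4 such transcripts with log2 changes of 0.07 to 0.58. Glut4EF was among the exceptions, with 5 of 6 transcripts below 0.

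The authors' deposited table, made with sleuth on transcripts, gave 156 of 19705 transcripts a q-value under 0.05 (0.792%), of which 118 had a positive and 38 a negative effect b. All 156 had the same sign in the edgeR fit of the same libraries, so this is no separate evidence. They belong to 144 genes, of which 72 were called in the gene test here. The table lists a technical variance at or above the biological variance for 12551 transcripts, PCB-RJ among them.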

How the data were processed

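RNA of 9 libraries was analysed. Per the submitters' processing notes the authors used Trimmomatic 0.22 for trimming, kallisto 0.43 for transcript abundance and sleuth for tests. The genome build and annotation are not given in the sources used here. The deposited tables hold estimated counts per transcript, not normalized, and the authors' TPM, with effective lengths. The authors' comparison tables give the effect b on a natural log scale with p-values and q-values. Positions come from the BDGP6 annotation of Ensembl by ID. Annotated minus effective length was within 20 bases of 189 for 99.7% of 24972 transcripts.

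Estimated counts were summed per gene, rounded, filtered (filterByExpr, minimum count 10, minimum total 15), TMM-scaled and tested with the robust quasi-likelihood test of edgeR 4.0.16 (R 4.3.3), and likewise per transcript. Usage was tested with diffSpliceDGE and Simes p-values. Transcripts without a gene held 0.0418 to 0.0567% of counts and were left out. At these depths 3 counts are 0.216 to 0.367 CPM. DESeq2 1.42.0 and limma 3.58.1 (log2 of TPM + 0.5) were alternatives, beside RLE scaling, a length offset, other filters, a replicate block and leave-outs. Of genes over 50 counts, 182 shared all counts with another gene, and 0 of them were called. Tests are two-sided. They were also run on simulated counts drawn separately for each gene and each transcript. That simulation had no division of reads among transcripts and no outlying libraries, so it does not show how the tests behave with these. Figures were drawn with matplotlib 3.10.9.

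Members, lists and tests were chosen with earlier results of these data known. The rule named sxc, its transcripts, the transgenes and the sweet receptors. It named the 12 largest changes each way among called genes of 5 CPM with groups apart, up to 3 called members of each list, and the 10 genes with the smallest usage p. Of these genes, 1 is not reported here. Gene lists matched 1374 entries and missed 15.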

Additional observations from a re-analysis of the deposited data

Results flagged for a closer look

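In groups of 4 or 5 libraries, single libraries lay far from the rest in 13 of 178 groups checked, where chance gives about 1 in 20. In OGT RNAi the highest library stood apart at 170 CPM for sxc (replicate 2), at 415 CPM for Adgf-A and at 141 CPM for fru (both replicate 4), and at 9.33 CPM for Ir60a (replicate 5). The summed haemocyte markers of OGT RNAi also had 1 high library, at 375 CPM. In Gal4 control the highest library stood apart at 21.6 CPM for Gr64e (replicate 2), 14.8 CPM for CG10669 (replicate 4), 0.0918 CPM for CG11313 and 0.184 CPM for CG15696 (both replicate 3, the other libraries at 0). For CG11313 and CG15696 the values at 0 fixed the flag in advance, and it rests on 1 count and 2 counts. Gal4 control replicate 4 was lowest for CG9521, at 199 CPM, and highest for the summed photoreceptor markers, at 1372 CPM. Gal4 control replicate 2 had the lowest share of PCB-RJ, at 0.275% of the counts of the gene, and the highest share of Bacc-RB, at 1.18%.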

How the results depend on the processing

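Gene calls numbered 119 and stayed within 1.5 times of that with RLE scaling (122), a length offset (129), limma (90), no filter (148) and a stricter filter (83). DESeq2 gave 266, the fit without both libraries with eye RNA (chosen after seeing the data) gave 4, and leave-outs gave 42 to 265. The 1 transcript call became 355 with DESeq2, 10 with limma, 5 with a stricter filter, 7 among transcripts with technical below biological variance, 0 without both libraries with eye RNA, and 1 to 15 in leave-outs. The 12 usage calls became 28 with an F test per gene, 38 with limma, 3 among transcripts of at least 10% of their gene, and 7 to 18 in leave-outs. Without both libraries with eye RNA 12 genes were called for usage, of which 4 were shared. The causes were not tested, beyond the fewer libraries or transcripts in some of these fits.

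Same-numbered replicates were not paired by the data: the correlations of their deviations were 0.16, -0.25, -0.02 and -0.05. With the replicate number as a block, 63 genes (45 shared), 0 transcripts and 3 usage genes (PCB and Maf1 among them) were called.

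The change of sxc ranged between -0.26 and -0.1 and was called in no setting. Gr64a ran between -0.02 (without Gal4 control replicate 4) and 0.24 in leave-outs and reversed to -0.09 without both libraries with eye RNA. sxc-RC ran between -0.07 (without Gal4 control replicate 2) and 0.4. Of 58 named called genes, 22 kept their call in the 16 other settings with the eye RNA libraries kept or left out singly, 3 of these also without both, and 0 reversed. Depth limits the transcripts with few counts.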
